A study of Mus musculus with 72 samples.

Results

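The transcripts described are 4 from mouse liver whose 24 h profile differed between germ-free (GF) and conventional, specific pathogen free (SPF) mice with an intact liver clock: Mtnr1a, Grk5, Plce1 and Mcoln1. They are 4 of the 55573 genes in the count table and were chosen by their measured values, as genes whose fitted 24 h wave differed between GF and SPF wild type (WT) livers. Their values in WT mice are therefore a description. Tests are given for liver clock knockout (LKO) mice, whose libraries the choice did not use, and for the difference in level between the genotypes, a measure the choice did not use although its WT libraries were used.

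The study asked how the liver clock and gut microbes act together, and sequenced poly(A) RNA from whole liver of male mice, labelled C57BL/6 and described in the methods as of C57BL/6J background. WT mice were Bmal1 fl/fl and LKO mice were Bmal1 fl/fl Albumin-Cre, so that both genotypes carry the floxed alleles and the albumin promoter, active in hepatocytes, drives Cre in LKO mice only. SPF mice harboured microbes, and GF mice of both genotypes were rederived and kept in flexible film isolators. All ate autoclaved chow ad libitum under a 12 h light and 12 h dark cycle with lights on at zeitgeber time (ZT) 0, and livers were taken every 4 h at ZT2, ZT6, ZT10, ZT14, ZT18 and ZT22 from 3 mice per group, giving 18 libraries in each of SPF WT, GF WT, SPF LKO and GF LKO and 72 in all. The mice were 10 to 14 weeks old when they were moved to individual housing, and livers were taken some weeks later.

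Mtnr1a encodes a melatonin receptor that couples to inhibitory G proteins and lowers cyclic AMP; inbred C57BL/6 mice are known to make little melatonin. Grk5 encodes a kinase that phosphorylates activated G protein coupled receptors, after which arrestins bind and signalling stops. Plce1 encodes phospholipase C epsilon, which is recruited by Ras and Rap proteins and releases inositol trisphosphate and diacylglycerol, and Mcoln1 encodes a cation channel of the lysosome membrane that is opened by a phosphoinositide and whose calcium signal feeds into lysosome biogenesis. Bmal1 (Arntl in the gene table) is the clock activator that, with CLOCK or NPAS2, binds E-boxes in the promoters of rhythmic genes.

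All 4 genes lie on the plus strand of GRCm38: Mcoln1 (ENSMUSG00000004567) at chr8:3500457-3515232, Mtnr1a (ENSMUSG00000054764) at chr8:45069137-45088506, Plce1 (ENSMUSG00000024998) at chr19:38481109-38785030 and Grk5 (ENSMUSG00000003228) at chr19:60889749-61095968. Reads were counted over exons without regard to strand, and none of the members' exon bases are shared with another annotated gene. RefSeq promoter windows of 300 bases (GRCm38.p6, 250 before the start and 50 from it) matched 4 of 4 members. Those of 3 members are shown because 2 of them hold the E-box letters CACGTG and the other belongs to the member with the widest gap between genotypes. They are read 5′ to 3′ on the plus strand, with CACGTG in capitals: Mcoln1 at chr8:3500269-3500568, Mtnr1a at chr8:45068857-45069156 and Grk5 at chr19:60889499-60889798.
Mcoln1: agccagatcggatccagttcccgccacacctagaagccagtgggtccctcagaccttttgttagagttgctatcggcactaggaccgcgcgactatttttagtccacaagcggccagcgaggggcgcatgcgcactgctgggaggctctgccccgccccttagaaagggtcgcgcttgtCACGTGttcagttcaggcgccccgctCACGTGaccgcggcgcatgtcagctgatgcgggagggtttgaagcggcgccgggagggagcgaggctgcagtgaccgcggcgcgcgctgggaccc
Mtnr1a: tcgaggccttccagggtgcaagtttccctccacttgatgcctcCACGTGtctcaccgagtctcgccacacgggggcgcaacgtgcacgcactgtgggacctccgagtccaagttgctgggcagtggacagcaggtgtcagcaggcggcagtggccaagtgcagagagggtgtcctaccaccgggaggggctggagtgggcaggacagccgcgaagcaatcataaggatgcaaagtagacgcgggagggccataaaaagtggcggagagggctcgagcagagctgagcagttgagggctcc
Grk5: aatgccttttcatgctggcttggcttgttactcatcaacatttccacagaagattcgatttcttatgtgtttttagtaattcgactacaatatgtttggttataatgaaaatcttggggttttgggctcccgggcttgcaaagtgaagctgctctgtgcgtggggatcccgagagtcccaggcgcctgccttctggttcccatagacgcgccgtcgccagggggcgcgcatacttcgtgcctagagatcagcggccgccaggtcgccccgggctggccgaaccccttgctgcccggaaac
The Mcoln1 window held CACGTG 2 times, 71 and 45 bases before the RefSeq start, the second inside the letters TCACGTGA and, since the annotated gene span begins earlier than that start, within the span, and the Mtnr1a window held it once, 207 bases before its RefSeq start. Among 32851 RefSeq windows of this length, 7.15% held CACGTG, 0.594% held it at least 2 times and 0.974% held TCACGTGA, both palindromes that read alike on either strand. The windows of Grk5 and Plce1 did not hold these letters, and the Plce1 window lies inside the annotated gene span rather than at its 5′ end. The letters TTANGTAA (D-box), AGGTCA (bound by ROR proteins) and TGACGTCA (CRE), searched on both strands and present in 2.32%, 16.3% and 1.79% of windows, were not found in any of the 4 windows. A match is a description of the letters only.

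Libraries held 17369927 to 22076113 counted reads (median 19106725), and 14636 genes passed the filter on low counts, among them all 4 members. Values are counts per 1000000 of the library's total (CPM) after TMM scaling, and p-values come from quasi-likelihood F tests in edgeR, adjusted by Benjamini and Hochberg's method over all genes tested, with 0.05 as the threshold. Hepatocyte markers were well above background in every group (8 of 8 with a median of at least 1 CPM). The whole-gene count of Arntl was 7.04 to 13.4 CPM in GF LKO and 8.52 to 29.2 CPM in SPF LKO livers against 0.331 to 40.6 CPM across the day in GF WT livers. The 29.2 CPM was SPF LKO ZT18 replicate 1, 1 of the libraries marked below, against 11.5 and 11.9 CPM in the other mice of that time. Without the marked libraries the highest SPF LKO value was 16.5 CPM. A count over the whole gene does not show whether the floxed exon is gone. Npas2, which the clock represses through Nr1d1, was higher in LKO than WT livers by 5.11 in SPF and 5.15 in GF mice on the log2 scale (edgeR adjusted p = 9.21e-12 and 1.04e-23).

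A few libraries went against their labels and are marked throughout. Npas2 in the liver labelled replicate 2 of SPF LKO at ZT14 was 0.219 CPM against 25 and 24.0 in the other 2 mice of that time, and Grk5 was 4.33 CPM against 79.2 and 86.0, within the SPF WT range of 3.79 to 15.4. Npas2 in the liver labelled replicate 1 of SPF LKO at ZT18 was 1.82 CPM against 36.7 and 27.5, Grk5 8.54 against 82.2 and 107, and the summed hepatocyte markers were at 133000 CPM, the highest of SPF LKO. The library SPF WT ZT14 replicate 3 had Arntl at 2.12 CPM and Nr1d1 at 85.1, and GF WT ZT6 replicate 3 had Arntl at 8.21 CPM, each away from the other mice of its time. In these last 2 libraries Mcoln1 read 28.1 and 21.3 CPM, the middle value of each 3. Grk5 read 4.45 and 4.42 CPM, the lowest of each 3, and Plce1 14.9 and 15 CPM, the highest of each 3, while Mtnr1a was the highest at 1.61 CPM in the SPF and the lowest at 2.30 CPM in the GF library. Tests of the members and counts over gene lists are given with and without the libraries that stand apart. Low Grk5 is among the values shown here for the 2 SPF LKO libraries. Results for Grk5 without them therefore partly follow from that step and are a description.

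The WT contrast that chose the members called 6 of 14636 genes (0.041%). The size of the difference between the fitted GF and SPF waves, as the log2 distance from midline to peak of their difference, was 1.03 for Grk5, 0.91 for Mtnr1a, 0.44 for Plce1 and 0.35 for Mcoln1. Their adjusted p-values by edgeR, given only to describe the contrast that selected them, were 0.0262 for Grk5, 0.0265 for Mcoln1 and 0.0347 for both Plce1 and Mtnr1a. Just inside the threshold stood Ccnf and Tardbp (both 0.0347), and just outside Cbx2 (0.0605) and Rhob (0.0627). limma on variance-stabilised values of the same WT libraries placed the 4 members, and no other gene, inside it, which is no separate support. Without the 2 WT libraries that stand apart, 10 genes were called and the members' values ranged from 0.0071 to 0.0407. When each of the 36 WT libraries was left out in turn, Grk5 remained inside in 33 fits, Mcoln1 in 29, and Mtnr1a and Plce1 in 23 each.

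Mtnr1a in WT livers was low with a shallow course in SPF mice and rose more steeply around the end of the dark phase in GF mice. The ZT2 mean in SPF WT was 1.79 times the ZT10 mean, and in GF WT it was 4.69 times the ZT14 mean. At ZT22 the 3 GF WT livers read 4.75, 4.95 and 5.27 CPM and the 3 SPF WT livers 2.55, 1.63 and 1.54 CPM. At ZT2 the GF WT values were 5.67, 5.02 and 6.14 CPM and the SPF WT values 1.93, 3.14 and 2.75 CPM. The groups did not overlap at these times or at ZT6, where the GF mean was 2.76 ± 0.419 (SD, n = 3) and the SPF mean 1.56 ± 0.487 CPM, so that the ratios of the GF to the SPF mean were 2.62 at ZT22, 2.15 at ZT2 and 1.77 at ZT6. From ZT10 to ZT18 the livers of the 2 groups overlapped, with means between 1.2 and 2.0 CPM. The GF WT order was ZT2, then ZT22, then ZT6, each farther from the next than the larger SD. ZT18, ZT10 and ZT14 followed, and neighbours among these were not farther apart than the larger SD. In SPF WT mice no neighbours in the order were. These are small counts, 24 to 67 reads per library in SPF WT and 11 to 105 in GF WT livers, which limits how closely a single liver is measured.

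Grk5 was high late in the night and low late in the day in both WT groups, with a deeper course in GF mice. At ZT2 the GF WT livers read 23, 27.2 and 35.9 CPM and the SPF WT livers 6.76, 10.5 and 7.88 CPM, a ratio of means of 3.42. At ZT22 the values were 17.8, 18.9 and 33.4 CPM in GF WT and 11.6, 15.4 and 13.4 CPM in SPF WT, a ratio of 1.74. At ZT10, the low point of both groups, the order was turned, with 2.67, 2.75 and 3.32 CPM in GF WT below 3.97, 4.68 and 4.68 CPM in SPF WT. At ZT6, ZT14 and ZT18 the groups overlapped. The ZT2 mean in GF WT, 28.7 ± 6.56 (SD, n = 3), was 9.84 times the ZT10 mean, whereas the highest of the SPF WT means, 13.5 at ZT22, was 3.03 times its ZT10 mean. In GF WT mice ZT2 and ZT22 did not differ beyond their spread.

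Plce1 was flat in SPF WT livers and peaked early in the night in GF WT livers. The 18 SPF WT libraries spanned only 11.2 to 15.9 CPM (median 14.3), and no neighbouring times in their order differed beyond the larger SD. At ZT14 the GF WT livers read 20.3, 21.2 and 23.3 CPM, all above the SPF WT values of 14.2, 13.3 and 14.9 CPM. At ZT2 the GF WT values, 8.08, 10.4 and 9.18 CPM, were all below the SPF WT values of 14.5, 11.2 and 13.9 CPM. The groups also parted at ZT22, where GF WT livers averaged 10.8 and SPF WT livers 13 CPM, and overlapped at ZT6, ZT10 and ZT18.

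Mcoln1 rose in the second part of the light phase in both WT groups, with a later and steeper course in GF mice. At ZT2 the GF WT livers read 15.2, 17.4 and 18.3 CPM, below the SPF WT values of 24.2, 26.7 and 24.7 CPM, and at ZT6 they again lay below. At ZT14 the GF WT values were 32.9, 32.2 and 30.5 CPM, above 26.7, 29.7 and 28.1 CPM in SPF WT, and at ZT18 they again lay above. In SPF WT mice ZT10 and ZT14 did not differ beyond their spread and ZT22 was lowest at 20.4 ± 1.36 CPM (SD, n = 3), while in GF WT mice ZT14 stood above each other time and ZT22 and ZT2 shared the low point. Over the 4 genes, GF and SPF WT livers did not overlap in 13 of 24 comparisons at a single time, against 22.9% over all genes tested and times; the choice of members fixes this count, and nothing is read from it.

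**Figure D1:**
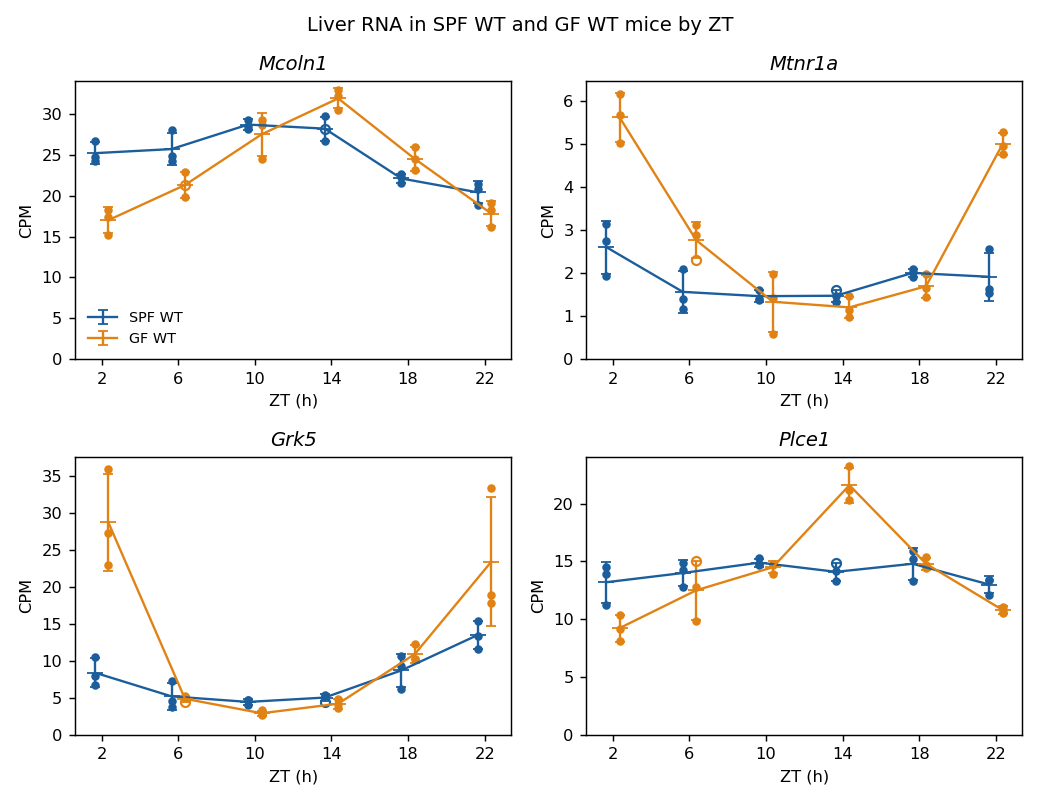
CPM of Mcoln1, Mtnr1a, Grk5 and Plce1 (vertical axes) in SPF WT and GF WT livers against ZT in hours (horizontal axes); points are single livers, open circles the libraries that stand apart, and bars the mean ± SD of 3 mice. GF WT livers lie above SPF WT livers at ZT2 and ZT22 for Mtnr1a and Grk5, and at ZT14 for Plce1 and Mcoln1, whose ZT2 values lie below.

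A cosine of 24 h fitted to log2 CPM in each group put numbers on these courses. The amplitude, the log2 distance from midline to peak, was larger in GF than in SPF WT livers for each member: 1.22 ± 0.124 (SE, 18 livers) against 0.32 ± 0.102 for Mtnr1a, 1.68 ± 0.135 against 0.77 ± 0.102 for Grk5, 0.52 ± 0.0619 against 0.09 ± 0.0392 for Plce1, and 0.46 ± 0.0357 against 0.23 ± 0.0354 for Mcoln1. As a fold from trough to peak this was 5.41 and 1.56 for Mtnr1a, 10.2 and 2.90 for Grk5, 2.07 and 1.13 for Plce1, and 1.88 and 1.37 for Mcoln1. The fitted peaks, in hours of ZT, fell into pairs: Mtnr1a at 0.805 ± 0.389 h and Grk5 at 23.05 ± 0.308 h in GF WT livers, around lights on, and Plce1 at 13.7 ± 0.451 h and Mcoln1 at 13 ± 0.3 h, just after lights off. In SPF WT livers the peaks were at 23.4 ± 1.22 h, 21.9 ± 0.506 h, 12.5 ± 1.70 h and 9.75 ± 0.597 h in the same order, so that Mcoln1 peaked 3.24 ± 0.668 h later in GF mice and Mtnr1a, Grk5 and Plce1 1.46 ± 1.28, 1.12 ± 0.592 and 1.17 ± 1.76 h later. Without the 2 WT libraries that stand apart the amplitudes in GF and SPF WT livers were 1.23 and 0.33 for Mtnr1a, 1.66 and 0.75 for Grk5, 0.55 and 0.09 for Plce1 and 0.46 and 0.22 for Mcoln1. Core clock genes in the same WT livers peaked at 20.8 h (SPF) and 21.3 h (GF) for Arntl, 6.41 h and 6.80 h for Nr1d1, 8.85 h and 9.76 h for Dbp and 13.2 h and 13.6 h for Per2, with GF to SPF amplitude ratios of 0.917 for Nr1d1 to 1.11 for Arntl. The GF peak was later by 0.49 ± 0.643, 0.39 ± 0.76, 0.91 ± 0.542 and 0.32 ± 0.63 h (SE) in the same order. Without the 2 WT libraries that stand apart it was later by 0.57 ± 0.612, 0.92 ± 0.446, 1.24 ± 0.505 and 0.66 ± 0.505 h. The amplitude ratios were then 0.934 for Nr1d1 to 1.19 for Arntl.

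**Figure D2:**
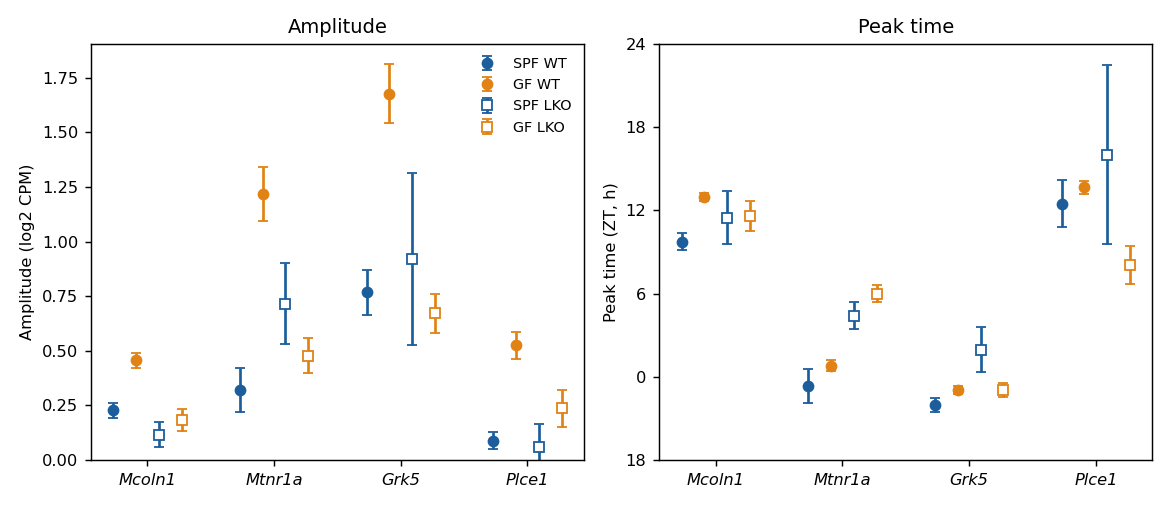
Amplitude (left, log2 CPM from midline to peak) and peak time (right, ZT in hours, on an axis that runs from ZT18 through ZT0 to ZT24) of the fitted 24 h cosine for each gene in the 4 groups, with bars of 1 SE over 18 livers; the amplitude axis starts at 0 and cuts the lower bar of Plce1 in SPF LKO. In WT livers the GF amplitude is above the SPF amplitude for each gene, and the peak time of Plce1 in SPF LKO livers is known only to ± 6.45 h.

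In LKO livers the rhythm difference between GF and SPF mice was tested in libraries the choice did not use, and 0 of the 4 members were called against 631 of 14636 genes (4.31%). The sizes and edgeR adjusted p-values were 0.30 and 0.290 for Plce1, 0.26 and 0.614 for Mtnr1a, 0.27 and 0.813 for Grk5, and 0.06 and 0.858 for Mcoln1. Without the 2 SPF LKO libraries that stand apart they were 0.21 and 0.363 for Plce1, 0.11 and 0.879 for Mtnr1a, 0.25 and 0.443 for Grk5, and 0.11 and 0.60 for Mcoln1. None had an unadjusted p under 0.05 with all libraries, and DESeq2 and limma also called 0 of the 4. The GF minus SPF difference in amplitude was 0.18 for Plce1 (95% interval -0.10 to 0.45), 0.07 for Mcoln1 (-0.09 to 0.23), -0.24 for Mtnr1a (-0.65 to 0.18) and -0.25 for Grk5 (-1.08 to 0.58). Without the 2 libraries it was 0.12 for Plce1 (-0.08 to 0.31), 0.11 for Mcoln1 (-0.03 to 0.25), -0.01 for Mtnr1a (-0.33 to 0.31) and 0.22 for Grk5 (-0.06 to 0.51). In simulated LKO counts this edgeR test recovered 53 of 100 genes with a log2 size of 0.5 and 98 of 100 with a size of 1. These are shares over 100 genes of each size, and the share for each member was not tested. With all libraries the amplitude interval of Grk5, -1.08 to 0.58, was the widest of the 4. A missing call for a member therefore does not show that a difference is absent. Whether the GF effect on the rhythm differed between WT and LKO mice was not tested.

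At single times, GF and SPF LKO livers did not overlap in 3 of 24 comparisons, against 26% over all genes tested and times. Mcoln1 was lower in GF LKO livers at ZT6 (24.5, 20.6 and 19.8 CPM against 24.7, 24.9 and 28.5) and at ZT22 (19.1, 20.4 and 15.8 against 22.1, 24.3 and 22.4). Mtnr1a was higher at ZT18 (5.95, 6.04 and 8.25 CPM against 2.86, 3.25 and 5.16, the lowest of which is the library that stands apart). Grk5 and Plce1 overlapped at all 6 times. At ZT2, where Grk5 differed 3.42-fold in WT livers, GF LKO livers read 104, 139 and 153 CPM and SPF LKO livers 87.9, 125 and 109 CPM. At ZT14, where Plce1 was 1.53 times higher in GF WT livers, GF LKO livers read 8.17, 7.03 and 7.36 CPM and SPF LKO livers 9.29, 16.3 and 7.66 CPM, the middle of these being the library that stands apart.

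**Figure D3:**
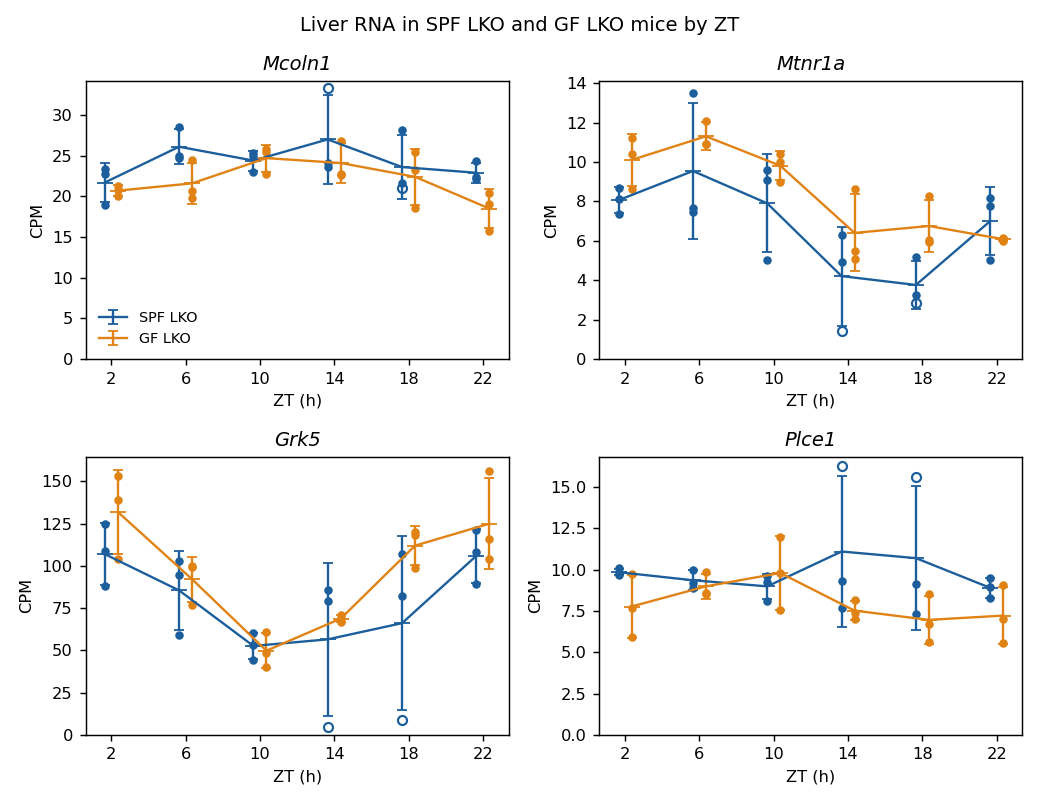
CPM of the 4 genes (vertical axes) in SPF LKO and GF LKO livers against ZT in hours (horizontal axes); points are single livers, open circles the libraries that stand apart, and bars the mean ± SD of 3 mice. The open circles at ZT14 and ZT18 are the lowest Grk5 values, 4.33 and 8.54 CPM, and the highest Plce1 values, 16.3 and 15.6 CPM, of the SPF LKO livers.

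Rhythms within the LKO livers were tested in the same fit, in which 3924 genes (26.8%) were called rhythmic in SPF LKO and 4653 (31.8%) in GF LKO livers. Sizes here are the log2 distance from midline to peak in this edgeR fit, and peak times are those of the least squares cosines. In SPF LKO livers the least squares amplitudes were 0.72 for Mtnr1a, 0.92 for Grk5, 0.11 for Mcoln1 and 0.06 for Plce1. Without the 2 libraries that stand apart they were 0.49, 0.45, 0.08 and 0.12. Mtnr1a was rhythmic in both groups. Its size was 0.64 in SPF LKO (edgeR adjusted p = 0.00187, 0.00822 without the 2 libraries that stand apart) and 0.47 in GF LKO livers (0.0115, 0.00116 without the 2 libraries). With all livers of 1 replicate number left out, the SPF LKO call was lost without number 2 (adjusted p = 0.0543) and the GF LKO call without number 1 (0.0535) or 3 (0.1). Its peak lay at 4.41 ± 0.994 h and 5.99 ± 0.639 h (SE), with ZT6 the highest mean in both groups, 9.54 and 11.3 CPM, whereas ZT2 was highest in both WT groups. Grk5 had a size of 0.67 in GF LKO livers with a peak at 23.05 ± 0.521 h (edgeR adjusted p = 0.0489). That call was lost in 29 of 36 fits that left out 1 library (range 0.0069 to 0.111) and reached 5.72e-06 without the 2 SPF LKO libraries that stand apart, which share the estimate of spread. In SPF LKO livers Grk5 was not called (0.55, adjusted p = 0.11); without these 2 libraries it was (0.43, adjusted p = 0.0052), and leaving out ZT18 replicate 1 alone gave 0.0479. Mcoln1 was called in GF LKO livers (0.19, edgeR adjusted p = 0.0216), though not without GF LKO ZT14 replicate 1 (0.0503) or ZT22 replicate 3 (0.0672), and was not called in SPF LKO livers (0.13, adjusted p = 0.155, or 0.425 without the 2 libraries). Plce1 was called in neither (0.11 and 0.598 in SPF, 0.10 and 0.536 without the 2 libraries; 0.24 and 0.121 in GF), but passed in GF LKO livers without the 2 SPF LKO libraries (0.0204).

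The level averaged over the day in LKO livers moved with microbial status for 3 of the 4 members, where 3103 genes (21.2%) were higher and 2964 (20.3%) lower in GF than in SPF mice. Mtnr1a rose 1.28-fold, with GF LKO livers between 5.07 and 12.1 CPM (median 8.65) and SPF LKO livers between 1.42 and 13.5 (median 7.42); the log2 difference was 0.36 ± 0.126 (SE), with an edgeR adjusted p of 0.0222, or 0.26 and 0.0443 without the 2 libraries that stand apart. Plce1 fell to 0.823 of its SPF level, with 5.58 to 12 CPM (median 7.93) against 7.31 to 16.3 (median 9.27), a log2 difference of -0.28 ± 0.0934 and an adjusted p of 0.0150. Without the 2 libraries Plce1 was no longer called (-0.15, adjusted p = 0.08). Mcoln1 fell to 0.910, with 15.8 to 26.8 CPM (median 22.0) against 18.9 to 33.3 (median 23.8), a log2 difference of -0.14 ± 0.0533 and an adjusted p of 0.0395. The Mcoln1 call was lost without the 2 libraries (-0.12, adjusted p = 0.0572), and also without any 1 of SPF LKO ZT14 replicate 2, GF LKO ZT6 replicates 2 and 3, ZT10 replicate 1, ZT14 replicates 2 and 3, ZT18 replicate 2 and ZT22 replicate 3 (0.0568 to 0.0777). For Grk5 the difference was 0.28 (95% interval -0.13 to 0.69), with an adjusted p of 0.286, and 0.11 (-0.06 to 0.29) with 0.33 without the 2 libraries. The groups overlapped for each of the 4 genes over their 18 and 18 livers.

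The level over the day differed between LKO and WT livers for 3 of the 4 members, in SPF and in GF mice. In SPF mice 2015 genes (13.8%) were higher and 1975 (13.5%) lower in LKO than WT livers, and in GF mice 2628 (18%) and 2544 (17.4%). Grk5 rose 10.9-fold in SPF mice, from 3.79 to 15.4 CPM (median 6.48) in WT to 4.33 to 125 CPM (median 87.0) in LKO livers, a log2 difference of 3.45 ± 0.242 with an edgeR adjusted p of 9.8e-13. In GF mice Grk5 rose 10.4-fold, from 2.67 to 35.9 CPM (median 7.73) to 40.2 to 156 CPM (median 99.7), a difference of 3.38 ± 0.116 with an adjusted p of 3.13e-23. The highest GF WT and the lowest GF LKO liver did not overlap for Grk5, as for 216 genes (1.48%); in SPF mice, where 1 gene (0.00683%) was free of overlap, the groups met only through the 2 LKO libraries that stand apart, without which the lowest SPF LKO liver read 44.3 CPM. Leaving out the 3 SPF libraries that stand apart gave 3.60, a fold of 12.2, and leaving out GF WT ZT6 replicate 3 gave 3.34 in GF mice. Since low Grk5 is among the values that mark the 2 LKO libraries, the wider SPF gap without them is no separate result.

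Mtnr1a rose 3.58-fold in SPF mice (log2 1.84 ± 0.146, edgeR adjusted p = 9.21e-12; 1.95 without the 3 libraries) and 3.36-fold in GF mice (1.75 ± 0.0966, 2.46e-17; 1.73 without GF WT ZT6 replicate 3). The gap was uneven over the day in GF mice, from 1.22-fold at ZT22, where the GF WT livers were at 4.99 ± 0.263 CPM (SD, n = 3) and GF LKO livers at 6.08 ± 0.0854, to 7.41-fold at ZT10, where they were at 1.33 and 9.81 CPM. Grk5 showed the same kind of range in GF mice, from 4.60-fold at ZT2 to 18.9-fold at ZT6. In SPF mice the gap ran from 1.88-fold at ZT18 to 6.13-fold at ZT6 for Mtnr1a and from 7.59-fold to 16.5-fold at these times for Grk5. The ZT18 means include the LKO library that stands apart. The WT courses that chose the members enter all these ranges, which are a description. Plce1 fell to 0.701 of the WT level in SPF mice (log2 -0.51 ± 0.0779, edgeR adjusted p = 3.78e-06; -0.64 without the 3 libraries) and to 0.595 in GF mice (-0.75 ± 0.0745, 1.75e-10; -0.72 without that replicate). Its widest gap in GF mice was at ZT14, where GF LKO livers averaged 7.52 ± 0.587 and GF WT livers 21.6 ± 1.51 CPM, a ratio of 0.348. The GF WT course that chose Plce1 enters this gap too. Mcoln1 did not pass in either state: -0.03 (95% interval -0.13 to 0.06; edgeR adjusted p = 0.662) in SPF and -0.06 (-0.15 to 0.03; adjusted p = 0.379) in GF mice. Without the libraries that stand apart these were -0.05 (adjusted p = 0.48) and -0.05 (0.405).

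**Figure D4:**
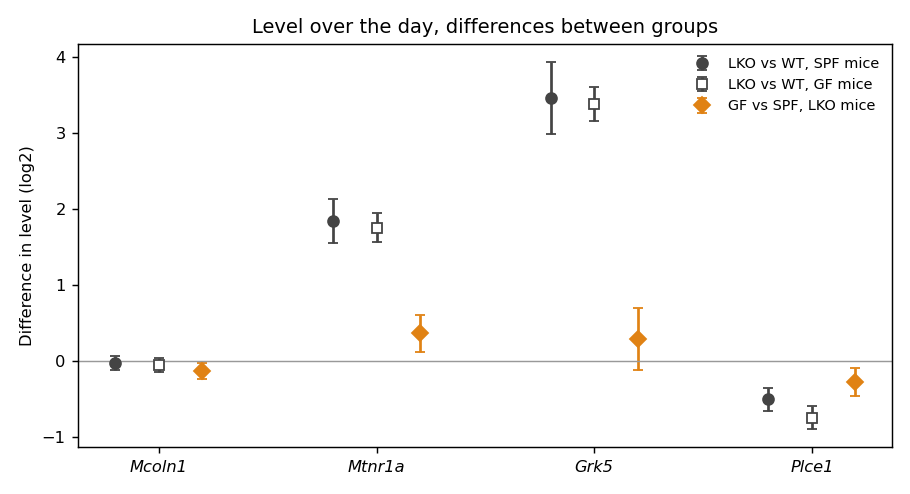
Log2 difference in level over the day (vertical axis) for each gene between LKO and WT livers of SPF mice, between LKO and WT livers of GF mice, and between GF and SPF livers of LKO mice, from edgeR fits to 36 libraries each with 95% intervals. Grk5 and Mtnr1a lie well above 0 and Plce1 below it for genotype, Mcoln1 lies at 0 for genotype, and the differences by microbial status in LKO mice are within 0.36 of 0.

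Several markers moved with the genotype beside these levels. The summed CPM of 8 hepatocyte markers had a median of 114000 in SPF WT (87600 to 139000), 146000 in GF WT (121000 to 177000), 64700 in SPF LKO (49000 to 133000) and 67500 in GF LKO livers (58800 to 84900). Alb carried most of this, with medians of 83700 CPM in SPF WT, 104000 in GF WT, 36400 in SPF LKO and 32100 in GF LKO livers. Apoa1 and Cps1 did not share the fall: the medians of Apoa1 were 7950, 11900, 8070 and 11900 CPM and those of Cps1 4090, 5770, 4750 and 5970 CPM in the same order. The other markers had smaller shifts than Alb on the CPM scale. Tat was at 2090, 2750, 1310 and 2060 CPM, Hnf4a at 735, 780, 642 and 649, and Cyp2e1 at 7730, 9350, 7270 and 7620. Ttr was at 5570, 6890, 5380 and 5880 CPM, these medians all being lower in LKO livers, and Serpina1a at 900, 1260, 845 and 1290. The 5 cholangiocyte markers summed to medians of 53.7, 43.8, 70.7 and 91.0 CPM in SPF WT, GF WT, SPF LKO and GF LKO livers, and most of that sum was Spp1, at medians of 44.2, 34.2, 58.8 and 79.9 CPM. Sox9 was also higher in LKO livers (3.81, 4.03, 10 and 6.68 CPM), whereas Krt19 was at 1.31, 1.19, 0.934 and 1.37 CPM, Krt7 at 0.792, 0.765, 0.56 and 0.663 CPM, and Epcam at 1.63, 1.09, 1.14 and 1.25 CPM. The 7 Kupffer cell markers summed to medians of 283, 260, 242 and 221 CPM. Medians of 7 endothelial markers ran from 231 to 249 CPM, of 7 stellate cell markers from 370 to 429 CPM and of 6 leukocyte markers from 8.34 to 14.7 CPM. No marker was at 0 in each library of a group. The part of these shifts in the members' levels was not tested, and in whole liver fewer cells of a type and less RNA per cell cannot be told apart.

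Per kilobase of exon, the median level in SPF WT livers was 3.28 CPM for Mcoln1, 0.919 for Grk5, 0.891 for Plce1 and 0.790 for Mtnr1a, so that the last 3 were close together. In SPF LKO livers the order of the per kilobase medians was Grk5 at 12.3, Mtnr1a at 3.62, Mcoln1 at 3.15 and Plce1 at 0.579, and in GF LKO livers it was the same, at 14.1, 4.22, 2.91 and 0.496.

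Over the 24 means of group and time, which were taken over all libraries and include the genotype gap, Grk5 and Mtnr1a ran together (Pearson r = 0.925) and both ran against Plce1 (-0.902 and -0.876). Mcoln1 was only loosely related to the others, at 0.568 with Plce1, -0.494 with Mtnr1a and -0.473 with Grk5. Among all genes tested, the profiles most like Grk5 were those of Loxl4, a lysyl oxidase family member (0.992), Chic1 (0.967) and Gas7 (0.964). Those most like Plce1 were Oplah, an enzyme of the glutathione cycle (0.924), Susd1 (0.923) and Hnmt, which methylates histamine (0.916). Those most like Mtnr1a were the predicted genes Gm30906 (0.963), Gm36041 (0.954) and Gm48877 (0.953). Those most like Mcoln1 were Limd1 (0.868), the natriuretic peptide receptor Npr2 (0.862) and Plcg1, another phospholipase C (0.861). These correlations over 24 means are a description, and Loxl4 was at a median of 1.28 CPM in SPF WT and 42 CPM in SPF LKO livers, the genotype gap that Grk5 also had.

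The partners of the 4 proteins were read from 8 lists of genes. In the WT contrast that chose the members, which called 0.041% of all genes, each of 4 lists held its own member as the single gene called. The choice of members fixes these 4 calls, and nothing is read from them. No other list gene was called there. In the LKO contrast, where 4.31% of all genes were called, the lists held 3 called genes: Plcb3, a phospholipase C that receptors drive through Gq (0.35, edgeR adjusted p = 0.0242; 0.33 and 0.0439 without the 2 libraries that stand apart), the clock repressor Nr1d1 (0.98, adjusted p = 0.0244; 1.23 and 0.00425 without them) and Gabarapl1, an autophagy protein, at the threshold (0.27, adjusted p = 0.05 as rounded, and 0.0549 without them). These were 1 of 22 phospholipase C and inositol trisphosphate genes tested (4.55%), 1 of 19 clock genes (5.26%) and 1 of 32 lysosome biogenesis genes (3.12%). The remaining lists, with 13, 12, 13, 15 and 18 genes tested, held 0. The shares lie near that of all genes or below it, and nothing is read from them. Of 12 alternatives that were not single libraries, the call was lost in 5 for Plcb3, 6 for Nr1d1 and 11 for Gabarapl1. Of 36 fits without 1 library it was lost in 0, 1 and 25. The single one for Nr1d1 left out GF LKO ZT14 replicate 2 (edgeR adjusted p = 0.0561).

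Around Mcoln1, 32 lysosome biogenesis genes had 18 higher and 3 lower in GF than in SPF LKO livers, where 21.2% of all genes were higher and 20.3% lower, with a median log2 difference of 0.12 against -0.02 over all genes tested. Among the largest of these differences, Ctsl, a cathepsin, rose by 0.59 and the lysosomal cholesterol carrier Npc2 by 0.33 on the log2 scale. Of 13 lysosomal channel and phosphoinositide genes, 4 were higher and 5 lower, Mcoln1 among the lower. The endolysosomal channel Tpcn2 fell by 0.68 and Tpcn1 by 0.21. Without the 2 SPF LKO libraries that stand apart, these counts were 19 higher and 2 lower for lysosome biogenesis and 4 higher and 4 lower for the channels, Mcoln1 being the gene no longer called. Between genotypes the same 13 genes had 1 higher and 1 lower in SPF mice (4 and 2 without the 3 libraries that stand apart) and 1 higher and 4 lower in GF mice (1 and 3 without GF WT ZT6 replicate 3), with Vac14, a scaffold of phosphoinositide synthesis, lower at -0.34 and -0.65 (-0.49 and -0.58 without these libraries).

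Around Mtnr1a and Grk5, 12 genes of melatonin receptors and inhibitory G protein signalling had 2 higher, Mtnr1a and Adcy1, and 5 lower in GF than in SPF LKO livers (2 and 4 without the 2 libraries that stand apart), against the same 21.2% higher and 20.3% lower. Adcy1, an adenylyl cyclase, rose by 1.55, while the cyclases Adcy7, Adcy6 and Adcy3 fell by 0.68, 0.45 and 0.43. The second melatonin receptor gene Mtnr1b and the synthesis genes Aanat and Asmt did not pass the filter on low counts. Of 13 receptor kinase and arrestin genes, 1 was called in that comparison, Arrb2, an arrestin, at -0.29 (-0.24 without the 2 libraries). Between genotypes Grk5 was the single receptor kinase gene called higher in SPF mice (1 higher, 4 lower), and Grk3 was called beside it in GF mice (0.29, edgeR adjusted p = 0.0424, or 0.0664 without GF WT ZT6 replicate 3; 2 higher, 3 lower, or 1 and 3 without it). Rgs16, which speeds the turning off of inhibitory G proteins, was lower in LKO livers at -4.33 in SPF (-5.38 without the 3 libraries that stand apart) and -5.47 in GF mice. Of 15 hepatic receptors, 5 were higher and 2 lower in SPF (5 and 3 without the 3 libraries) and 5 higher and 3 lower in GF LKO livers (4 and 3 without GF WT ZT6 replicate 3); the vasopressin receptor Avpr1a rose by 0.71 and 0.81 and the purine receptor P2ry1 fell by 0.85 and 0.83.

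Around Plce1, 22 phospholipase C and inositol trisphosphate genes had 3 higher and 6 lower in GF than in SPF LKO livers (3 and 5 without the 2 libraries that stand apart), a share of 40.9% beside the 21.2% higher and 20.3% lower over all genes. There Plcb1, a receptor-driven phospholipase C, fell by 0.36 and the diacylglycerol-sensing kinase Prkcd by 0.52. In the genotype comparison this list had 1 higher and 4 lower in SPF (1 and 5 without the 3 libraries) and 2 higher and 4 lower in GF mice, Plce1 showing its largest log2 difference in both. Of 18 Rap and Ras partners, 1 was higher and 8 lower in SPF LKO livers (1 and 9 without the 3 libraries) and 2 higher and 7 lower in GF LKO livers, where the small G protein Rap2a was lower at -0.59 (-0.70 without the 3 libraries) and -0.84. Prkd1, a kinase downstream of diacylglycerol, was higher by 1.60 in GF LKO than in GF WT livers. The 19 clock genes had 6 higher and 7 lower in SPF (5 and 8 without the 3 libraries) and 5 higher and 7 lower in GF LKO livers. The genotype counts over these lists stand beside backgrounds of 13.8% higher and 13.5% lower in SPF and 18% and 17.4% in GF mice, and no list was tested as a set.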

How the data were processed

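RNA of 72 livers was measured, and every library's group and ZT came from its labels. Per the file header and labels, the authors aligned single-end reads of a stranded mRNA library with STAR 2.6.1b to mm10 and counted them with featureCounts 2.0.0 over exons of Ensembl release 97, with no strand option set. The deposited values are raw counts per gene, not normalized, and no replicates were pooled. Of 55573 genes, 22224 had no counts.

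Counts were fitted with edgeR 4.0.16 (R 4.3.3): TMM factors, filterByExpr over the 24 cells of group and ZT (14636 genes kept), and quasi-likelihood F tests with Benjamini-Hochberg adjustment over all genes tested. Each pair of groups (36 libraries) had its own mean and 24 h cosine and sine terms per group; rhythm tests took both terms jointly and level tests the difference of means. Separate cosine fits by least squares used log2 CPM with a prior count of 2, with delta-method standard errors. The fits were tested on simulated data. Alternatives were DESeq2 1.42.0, limma 3.58.1 on variance-stabilised values, other scalings and filters, all libraries in 1 fit, a replicate block, free ZT means, pooled ZT, a prior count of 0.5, and leaving out libraries. Promoter sequences are from RefSeq (GRCm38.p6). Protein sequences were not used here.

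The members and lists were chosen with earlier results of these data known, so no list or pattern here is independent support. Named genes were the members, the 3 genes most correlated with each over the 24 means, list genes called in a rhythm difference, up to 4 called list genes with the largest difference per level test, and Arntl, Nr1d1, Dbp and Per2 as a time check; a list gene that this rule names is not reported here. Npas2 was also named, after its values were seen. The depth of 17369927 to 22076113 reads per library and 3 mice per group and ZT set the precision. Intervals are 95% intervals from the fitted models.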

Additional observations from a re-analysis of the deposited data

How the results depend on the processing

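The LKO rhythm difference was called for none of the 4 members in any alternative run, and the genotype differences were called in each for Grk5, Mtnr1a and Plce1, in the same direction, and in none for Mcoln1. The count of genes called in the WT rhythm contrast, 6, was 39 with DESeq2, 62 with no filter on low counts, 10 without the 2 libraries that stand apart, 1 with free means at each ZT, and 0 to 9 when replicates were left out. It was 0 without any 1 of SPF WT ZT2 replicates 1 and 3 and ZT14 replicate 1, 1 without GF WT ZT14 replicate 2 or ZT18 replicate 3, 2 without SPF WT ZT10 replicate 2, ZT14 replicate 2, ZT22 replicate 2 or GF WT ZT2 replicate 1 or 3, and 3 without SPF WT ZT2 replicate 2, GF WT ZT10 replicate 3 or ZT14 replicate 1. The LKO rhythm count, 631, was 1130 with DESeq2, 378 with all 72 libraries in 1 fit, 364 without the 2 libraries that stand apart, 7 with free means and 0 to 1084 when replicates were left out. Single libraries moved it to 290 (SPF LKO ZT2 replicate 1), 339 (ZT14 replicate 2), 961, 305 and 388 (ZT22 replicates 1, 2 and 3), 326 (GF LKO ZT2 replicate 1), 387 and 404 (ZT10 replicates 1 and 3), 360 and 350 (ZT14 replicates 1 and 2), and 1084 and 412 (ZT22 replicates 1 and 2). Leaving out replicates gave 3904 to 6199 genes for the LKO level (6067), 1371 to 4216 for rhythm in SPF LKO (3924), 2057 to 4925 for rhythm in GF LKO (4653) and 2575 to 4344 for genotype in SPF mice (3990). Without the libraries that stand apart the SPF LKO peaks moved to 22.7 h for Grk5 and 3.89 h for Plce1. The causes were not tested. With ZT pooled, the LKO level adjusted p was 0.147 for Mtnr1a and 0.104 for Mcoln1, and the rhythm of Grk5 in GF LKO gave 0.0556 with DESeq2 and 0.112 with limma. Over the alternatives that were not single libraries, the LKO level call was lost in 3 and kept in 9 for Mtnr1a and for Plce1. For Mcoln1 it was lost in 7 and kept in 5. The GF LKO rhythm call was lost in 6 and kept in 5 for Grk5, and lost in 2 and kept in 9 for Mcoln1.

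The replicate numbers gave no clear pairing of the livers: 5 of 18 same-numbered WT pairs and 4 of 18 LKO pairs correlated above 0.1, and 10 and 11 of 36 libraries correlated best with their own number. Between genotypes 5 of 18 SPF and 2 of 18 GF pairs correlated above 0.1, and 17 and 8 of 36 libraries correlated best with their own number. With the replicate block (ZT by number), 99 genes were called for the LKO rhythm, and the WT selection values were 0.0616 for Grk5 and Mcoln1, 0.12 for Mtnr1a and 0.228 for Plce1. Small counts limit Mtnr1a most.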
